A study of Mus musculus with 14 samples.

Results

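The comparison described here set intestinal stem cells from mice with a deletion of Chrm3 (KO) against cells from control mice (WT), with both genotypes under the treatment the labels abbreviate as ES. It comprises 4 of the series' 14 libraries, 2 of KO ES and 2 of WT ES, which were chosen by the genotype and treatment given in their labels. The abbreviation ES is not spelled out in the sources used here, and the series title speaks of chronic stress and the ageing of intestinal stem cells. All mice in the experiment carried an Lgr5CreERT2-IRES-GFP allele, which drives a tamoxifen-inducible Cre recombinase and a green fluorescent protein from the Lgr5 locus, together with a floxed Chrm3 gene on both chromosomes. WT mice received vehicle and KO mice tamoxifen for 3 days before ES modelling, so that the deletion and the injection cannot be told apart. The groups labelled NT, an abbreviation also not spelled out, comprise KO and WT with 2 libraries each, and were used to estimate the spread and to ask whether a genotype difference under ES was also measured in them. The animals' age and sex are not given for these groups, and nothing in the labels ties the libraries to separate animals. The p-values therefore measure only how these libraries vary, which may be technical.

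Chrm3 encodes the M3 muscarinic acetylcholine receptor, a receptor coupled to Gq proteins that raises calcium in epithelial cells on binding acetylcholine. Lgr5-positive stem cells divide at the crypt base and give rise to absorptive enterocytes, which take up and process nutrients and lipids, and to secretory cells, which comprise mucus-making goblet cells, antimicrobial Paneth cells, hormone-producing enteroendocrine cells and chemosensory tuft cells. Cholesterol synthesis is controlled by the transcription factor SREBP2, whose target genes rise when sterols in the membranes of the endoplasmic reticulum are low.

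Polyadenylated RNA was sequenced from cells sorted for Lgr5-driven fluorescence, and the deposited values are raw read counts per gene. The 4 ES libraries held 30592415 and 26683563 counts in WT and 31302500 and 35804682 in KO, and mitochondrial genes took 6.42% to 7.53% of them. Epcam, an epithelial adhesion molecule, stood at 1397 and 1358 CPM in WT ES and 1344 and 1441 CPM in KO ES. Lgr5 itself was detected at 99.1 and 90.8 CPM in WT ES and 113 and 99.2 CPM in KO ES, and the difference did not pass the test (0.16 ± 0.08 on the log2 scale, adjusted p = 0.270). Of 7 lists of markers of T cells, B cells, myeloid cells, fibroblasts, endothelium, enteric nerves and red blood cells, 6 had tested members. None of these members was called by edgeR, DESeq2 or limma-voom. By edgeR 3 of 4 tested fibroblast, 2 of 8 B cell and 1 of 10 myeloid genes had an unadjusted p under 0.05. Among all 17364 tested genes 3984 did. Those 3 fibroblast genes were lower in KO ES, and the count filter had removed 15 of the 19 on that list. Summed myeloid markers ranged from 98.9 to 104 CPM in WT ES and from 106 to 115 CPM in KO ES, and summed fibroblast and smooth muscle markers from 7.83 to 8.70 CPM and from 3.97 to 6.26 CPM. Most of the myeloid sum was Lyz2, which is also on the Paneth cell list. It stood at 66.1 and 61.7 CPM in WT ES and 72.0 and 71.8 CPM in KO ES. The fibroblast and muscle genes Col3a1, Dcn and Des were at 0 in all 4 ES libraries. In such bulk samples, fewer cells of a type and less RNA per cell cannot be told apart.

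Chrm3 was examined first, because it is the targeted gene. On GRCm38 it lies on chromosome 13, 9875486 to 10360847. It was measured at 11.6 and 10.9 CPM in WT ES and 8.13 and 6.04 CPM in KO ES, and at 11.2 and 13.0 CPM in WT NT and 9.24 and 7.71 CPM in KO NT. Both KO ES libraries lay below both WT ES libraries, and transcript counts remained in each. The log2 fold change in ES was -0.68 ± 0.17 (± is an approximate standard error throughout, adjusted p = 0.0363 by edgeR's quasi-likelihood test with Benjamini-Hochberg adjustment). The call of Chrm3 was lost without KO ES replicate 2, either WT ES library or either WT NT library (adjusted p of up to 0.243). The deleted exons are not given, so that reads summed along the entire gene are a weak check of genotype. Of 11 tested genes of acetylcholine receptors, synthesis and breakdown, 3 were lower, among them Chrm3 and the cholinesterase Bche (-0.60 ± 0.10), and none was higher. The number lower was 1 without KO ES replicate 2, either WT ES library or either WT NT library. The related receptor Chrm1 did not pass, with 4.91 and 5.72 CPM in WT ES and 5.46 and 3.58 CPM in KO ES. Of 31 Gq and calcium signalling genes, 5 were lower, with the calcium pump Atp2a3 at 208 and 199.5 CPM in WT ES and 121 and 119 CPM in KO ES (-0.77 ± 0.06, adjusted p = 7.11e-05), and 26 did not pass. That count dropped to 2 on omitting any 1 ES library.

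Of 17364 genes that passed the count filter, 1312 (7.56%) had an adjusted p under 0.05 for KO against WT in ES. Of those, 536 (3.09% of all tested) were higher and 776 (4.47%) lower in KO, and 56 of the higher and 235 of the lower ones differed at least 2-fold. The median log2 fold change over all tested genes was 0.00 to 2 decimals. In 53.3% of all tested genes the 2 genotypes' ES libraries did not overlap, and in 48% their NT libraries did not. Leaving out WT NT replicate 1 gave 744 calls, and leaving out its partner 735. Removal of WT ES replicate 1 gave 552, of WT ES replicate 2 456 and of KO ES replicate 2 375, and 593 remained in number when no count filter was used. Among 197 called genes chosen for naming by the fixed rule, 88 stayed called whichever library was left out, and none reversed. A further 64 genes are named for their role, of which 44 were called and 4 stayed called in each of these fits. For every called gene named below with its fold change, the text says which omitted library ended the call.

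**Figure D1:**
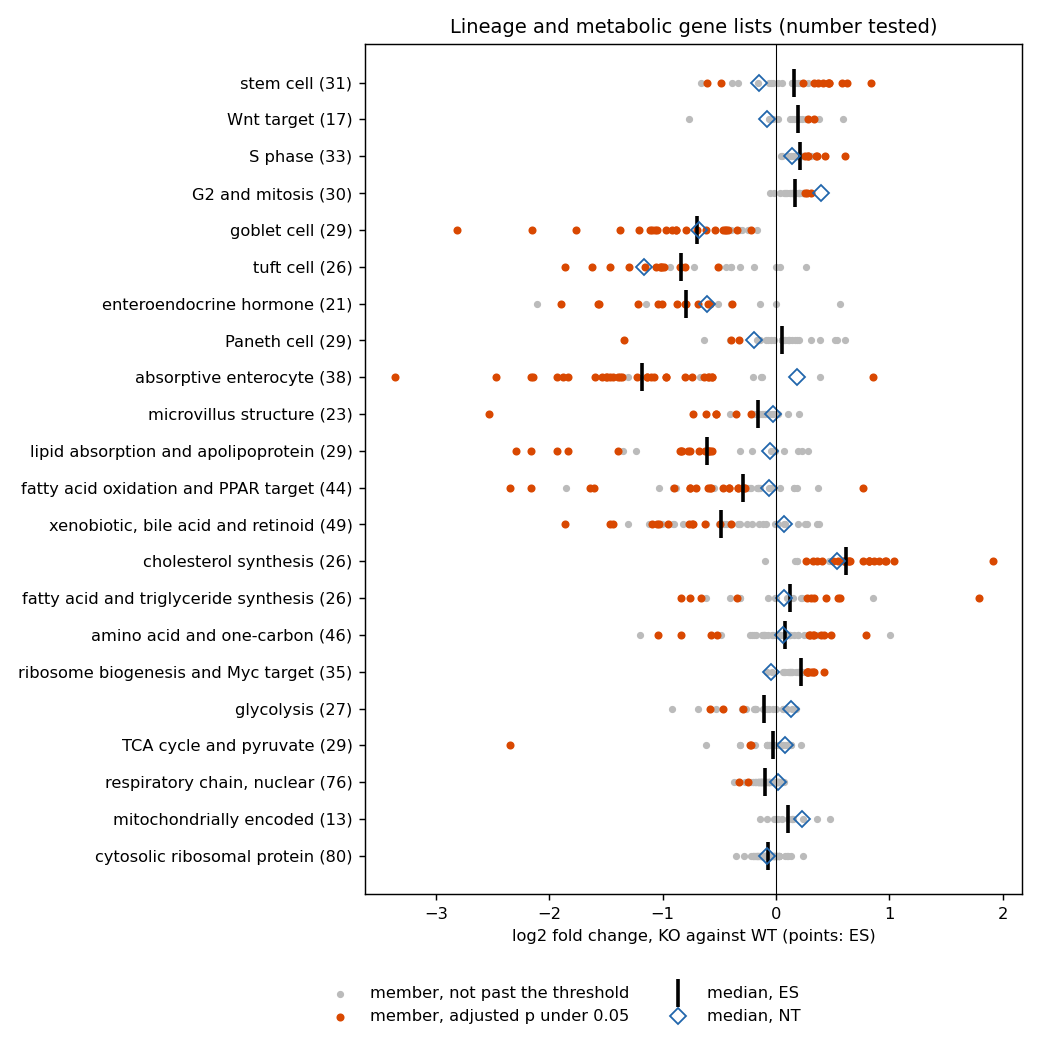
Log2 fold changes of KO against WT for 22 lists of lineage and metabolic genes. Each point is 1 tested gene in ES, coloured where its adjusted p was under 0.05, the black bar is the list's median in ES and the open diamond its median in NT. Absorptive enterocyte genes had a median of -1.18 in ES and 0.19 in NT, whereas cholesterol synthesis genes had 0.62 and 0.54.

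Genes of cholesterol synthesis and its control were higher in KO ES almost throughout. Of 26 genes, all of which passed the count filter, 21 rose, none fell and 5 did not pass (Hsd17b7, Stard4, Ggps1, Tm7sf2 and Ebp), with a median of 0.62 against 0.00 over all genes. The summed level of the 26 genes was 1907 and 1739 CPM in WT ES and 2521 and 2822 CPM in KO ES, so that the genotypes did not overlap. The called genes reached from the first step of the mevalonate pathway to the last steps of sterol formation. The number called was 12 when either KO ES replicate 2 or WT ES replicate 2 was left out, and with any other library left out it was 17 to 22.

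Sqle, squalene epoxidase, which commits squalene to sterol formation (chromosome 15, 59315077 to 59331192), stood at 60.8 and 54.6 CPM in WT ES and 112 and 126 CPM in KO ES. The KO libraries both lay above the WT libraries, and the log2 fold change was 1.05 ± 0.09 (adjusted p = 9.71e-05). Early in the pathway, Hmgcs1, which makes HMG-CoA, went from 193 and 164 CPM in WT ES to 227 and 277 CPM in KO ES (0.50 ± 0.11). The mevalonate and isoprenoid enzymes followed the same direction, with Mvd, the mevalonate decarboxylase, at 16.4 and 17.5 CPM in WT ES and 32.9 and 33.0 CPM in KO ES (0.96 ± 0.12). Idi1, the isopentenyl diphosphate isomerase, stood at 84.8 and 87.0 CPM and 139 and 174 CPM (0.87 ± 0.10). Cyp51, which demethylates lanosterol, stood at 77.0 and 63.5 CPM in WT ES and 123 and 141 CPM in KO ES (0.91 ± 0.10). In each of these genes the higher WT library lay below the lower KO library. At the end of the pathway, Dhcr7, which reduces the direct precursor of cholesterol, had a log2 fold change of 0.64 ± 0.09. The call of Hmgcs1 was lost without WT ES replicate 2, KO ES replicate 2 or either WT NT library (adjusted p of up to 0.184).

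Some regulators and uptake genes of the same system rose with the enzymes, whereas the sterol importer Npc1l1, described below, fell. Insig1, which holds SREBP proteins back when sterols are high, rose by 0.65 ± 0.12, and Srebf2, which encodes SREBP2, by 0.37 ± 0.06. Lrp8, a lipoprotein receptor, went from 4.45 and 3.26 to 11.1 and 14.0 CPM (1.70 ± 0.23). The sterol exporter Abca1, which is induced when sterols are plentiful, moved the other way, from 8.84 and 8.27 to 3.81 and 2.75 CPM (-1.39 ± 0.18, adjusted p = 0.00121). What lay behind these changes, sterol levels and SREBP2 activity included, was not tested. The same direction was measured in NT, where 17 of the 26 genes were higher in KO, none was lower (of all tested genes 4.47% were called in NT, 2.36% higher and 2.11% lower), and the median was 0.54. For none of the 26 did the genotype difference in ES differ from that in NT past the threshold, and the median of that difference was 0.14. The call of Insig1 was lost without KO ES replicate 2 or either WT ES library (adjusted p of up to 0.11). The call of Srebf2 was lost without WT ES replicate 2 or KO ES replicate 2 (adjusted p of up to 0.0848).

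**Figure D2:**
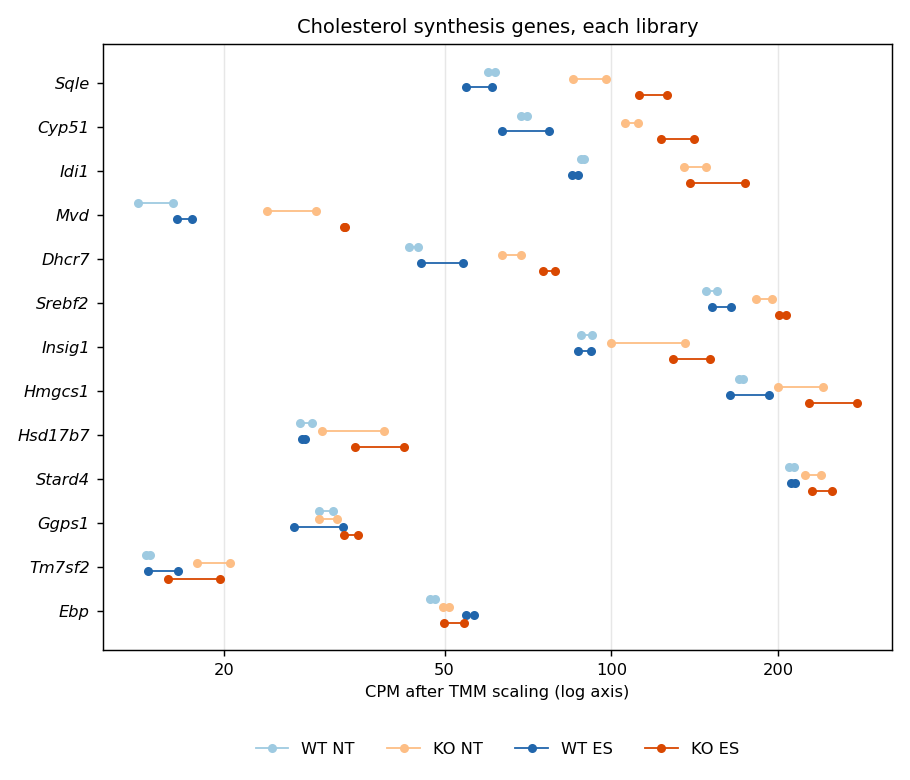
CPM (log axis) of 13 genes of the cholesterol synthesis list that the text names, in each of the 8 libraries, with the 2 libraries of a group joined by a line and genes ordered by their p in ES. For Sqle the KO ES libraries sit at 112 and 126 CPM, above both WT ES libraries at 60.8 and 54.6 CPM.

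Because these genes moved together, the 300 bases around their starts (250 before and 50 after, RefSeq promoters on GRCm38.p6) were searched on both strands for a sterol regulatory element. The letters searched were TCACCCCAC. They were found in 1 of 21 promoters of cholesterol synthesis genes (4.76%), against 181 of 32851 promoters of all genes (0.551%). The 21 promoters belong to 18 of the 26 genes, and 14 of the genes called higher had a promoter to search. The match lies in the promoter of Hmgcs1, given here because it is an early enzyme of the pathway that rose, on the forward strand at chr13:119690174-119690262, with the match in capitals.
Hmgcs1: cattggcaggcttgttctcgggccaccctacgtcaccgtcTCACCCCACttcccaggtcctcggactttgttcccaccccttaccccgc
The match starts 137 bases before the gene's start. Other forms of the element were not searched, and the absence of these letters from the other promoters says nothing about the factor.

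Among genes of fatty acid synthesis, those of precursor supply and desaturation that passed were higher in KO ES, and those of triglyceride assembly that passed were lower. Of 26 tested genes, 7 rose, 4 fell and 15 did not pass. Scd2, a stearoyl-CoA desaturase that makes monounsaturated fatty acids, stood at 132 and 80.7 CPM in WT ES and 340.4 and 394 CPM in KO ES (1.79 ± 0.17, adjusted p = 0.000204), with a like difference in NT (96.8 and 101 against 355 and 371 CPM, 1.88 ± 0.17). The highest of the 4 WT libraries lay far below the lowest of the 4 KO libraries. Fads1, a desaturase of polyunsaturated fatty acids, rose from 157 and 147 to 218 and 226 CPM (0.54 ± 0.08), and Acly, Acaca and Acss2, which supply acetyl-CoA and malonyl-CoA, rose by 0.31 ± 0.07, 0.44 ± 0.10 and 0.27 ± 0.06. Fasn, the fatty acid synthase, did not pass (0.29 ± 0.09, adjusted p = 0.0777). Of the enzymes that build triglycerides, Dgat2 fell from 21.2 and 21.1 to 11.0 and 12.5 CPM (-0.84 ± 0.12), Agpat2 from 42.2 and 45.7 to 28.2 and 27.5 CPM (-0.66 ± 0.08) and Mogat2 from 31.6 and 32.1 to 17.4 and 20.1 CPM (-0.76 ± 0.16). Without WT ES replicate 2 or KO ES replicate 2, 2 genes were called higher and 2 lower. It was 3 higher without either WT NT library or KO ES replicate 1, 2 lower without KO ES replicate 1, and 7 lower without either KO NT library. The calls of Acly and Acaca were lost without WT ES replicate 2, either KO ES library or either WT NT library (adjusted p of up to 0.217). The call of Acss2 was lost without any single ES library or either WT NT library (adjusted p of up to 0.150). The call of Mogat2 was lost without any single ES library (adjusted p of up to 0.0936).

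Fatty acid oxidation and PPAR target genes were lower in KO ES. Of 44 tested genes, 19 fell, 1 rose and 24 did not pass, with a median of -0.29. Cpt1a, the carnitine transferase that admits fatty acids to mitochondria, stood at 278 and 286 CPM in WT ES and 194 and 186 CPM in KO ES (-0.57 ± 0.06, adjusted p = 0.000336). The 4 values fell into 2 groups that did not overlap, and the NT libraries showed the same step, with 290.0 and 280.2 CPM in WT and 175 and 185 CPM in KO. Cpt2, its partner on the inner membrane, fell by 0.47 ± 0.07, the carnitine carrier Slc25a20 by 0.71 ± 0.11, and Acadvl, Acadl, Hadha and Hadhb, enzymes of the oxidation spiral, by 0.42 ± 0.07, 0.58 ± 0.10, 0.33 ± 0.06 and 0.27 ± 0.06. Ppara, the nuclear receptor that induces these enzymes, fell from 32.7 and 37.0 to 19.7 and 21.4 CPM (-0.76 ± 0.10), whereas Pparg rose from 5.69 and 7.0 to 9.33 and 12.2 CPM (0.77 ± 0.18). In NT, 10 of the 44 were lower and none higher, with a median of -0.06, and none of the 44 passed the test of the difference between ES and NT. The calls of Slc25a20 and Acadvl were lost without KO ES replicate 2 (adjusted p of up to 0.0613). The call of Acadl was lost without WT ES replicate 2 (adjusted p = 0.0539). The call of Hadha was lost without WT ES replicate 2 or KO ES replicate 2 (adjusted p of up to 0.0579). The calls of Hadhb and Pparg were lost without KO ES replicate 2, either WT ES library or either WT NT library (adjusted p of up to 0.189). The list's number of lower genes was 7 on leaving out WT ES replicate 2, 8 on leaving out KO ES replicate 2 and 11 on leaving out its partner.

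Genes that take up and package dietary lipid were lower in KO ES where they passed the test. Of 29 tested genes 17 fell, none rose and 12 did not pass, with a median of -0.61. In NT edgeR called none and the median was -0.05, and the test of the difference between ES and NT passed for 1 of the 29, Apoa4. Fabp1, a fatty acid binding protein of enterocytes, stood at 79.5 and 113 CPM in WT ES and 20.3 and 22.6 CPM in KO ES (-2.16 ± 0.24, adjusted p = 0.000553). Apoa1, the main apolipoprotein of high-density lipoprotein, stood at 70.6 and 94.1 CPM in WT ES and 21.2 and 25.0 CPM in KO ES (-1.83 ± 0.25). For both genes the KO ES libraries were the lowest of all 8. The fatty acid transporter Cd36 fell from 5.59 and 9.32 to 1.43 and 1.56 CPM (-2.30 ± 0.32), the fatty acid transport protein Slc27a4 by 0.61 ± 0.08, and Cideb, which lipidates lipoproteins, by 0.83 ± 0.11. The packaging genes Mttp and Apob, which load lipid onto chylomicrons, fell by 0.59 ± 0.11 and 0.56 ± 0.10. Sterol transporters of the brush border fell, with the importer Npc1l1 at -0.58 ± 0.13 and the exporter pair Abcg5 and Abcg8 at -0.62 ± 0.12 and -0.85 ± 0.15. Without WT ES replicate 2 the number of lower genes was 10, and without KO ES replicate 2 it was 9. The call of Mttp was lost without WT ES replicate 2 or either KO ES library (adjusted p of up to 0.0649). The call of Apob was lost without KO ES replicate 2 (adjusted p = 0.0725). The call of Npc1l1 was lost without any single ES library (adjusted p of up to 0.135). The calls of Abcg5 and Abcg8 were lost without WT ES replicate 2 or KO ES replicate 2 (adjusted p of up to 0.11).

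Absorptive enterocyte genes, which share 6 members with the lipid list just described, gave the largest median of the lineage lists. Of 38 tested genes, 30 fell, 1 rose and 7 did not pass, with a median of -1.18. Lct, the lactase of the brush border (chromosome 1, 128284756 to 128328318), stood at 41.9 and 51.8 CPM in WT ES and 8.0 and 8.88 CPM in KO ES, 5.53-fold lower (-2.47 ± 0.22, adjusted p = 0.000147). Its NT libraries lay between, at 34.4 and 33.9 CPM in WT and 20.7 and 35.5 CPM in KO. Xpnpep2, an aminopeptidase of the brush border, fell from 16.8 and 16.9 to 6.89 and 7.52 CPM (-1.22 ± 0.13). Apoa4, a lipid-induced apolipoprotein, fell from 68.9 and 90.8 to 19.5 and 22.3 CPM (-1.93 ± 0.26), and Rbp2, the cellular retinol binding protein of enterocytes, from 120.0 and 164 to 47.2 and 57.7 CPM (-1.43 ± 0.22).

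Enterocyte genes of several functions fell alongside. The peptide transporter Slc15a1 (-2.15 ± 0.39), the amino acid transporter Slc6a19 (-1.47 ± 0.25), the glucose transporter Slc5a1 (-0.56 ± 0.13) and the fructose and glucose carrier Slc2a2 (-1.10 ± 0.28) were lower, as were the peptidases Ace (-1.50 ± 0.22), Enpep (-1.13 ± 0.23) and Anpep (-0.59 ± 0.13). Sucrase-isomaltase (Sis) stood at 345 and 474 CPM in WT ES and 214 and 299 CPM in KO ES and did not pass (-0.67 ± 0.26, adjusted p = 0.154). Mep1a, a meprin subunit that lies on chromosome 17, was the 1 member that rose (0.86 ± 0.16), and it was also higher in KO NT (1.02 ± 0.16). The intestinal alkaline phosphatase gene Alpi fell from 101 and 118 to 34.4 and 43.1 CPM (-1.49 ± 0.22). Its neighbour Akp3 is a close paralog, with which reads may be shared, and fell from 12.3 and 21.5 to 4.35 and 6.67 CPM (-1.60 ± 0.34). The number of lower enterocyte genes was 13 without WT ES replicate 2, 16 without KO ES replicate 1, 17 without KO ES replicate 2 and 16 without the count filter. The call of Slc15a1 was lost without WT ES replicate 2 or KO ES replicate 1 (adjusted p of up to 0.0575). The call of Slc6a19 was lost without WT ES replicate 2 (adjusted p = 0.0561). The calls of Slc5a1 and Slc2a2 were lost without any single ES library or either WT NT library (adjusted p of up to 0.209). The calls of Enpep and Akp3 were lost without WT ES replicate 2 or either KO ES library (adjusted p of up to 0.149). The call of Anpep was lost without KO ES replicate 1, either WT ES library or either WT NT library (adjusted p of up to 0.11). The call of Mep1a was lost without WT ES replicate 1 or either KO ES library (adjusted p of up to 0.0980).

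**Figure D3:**
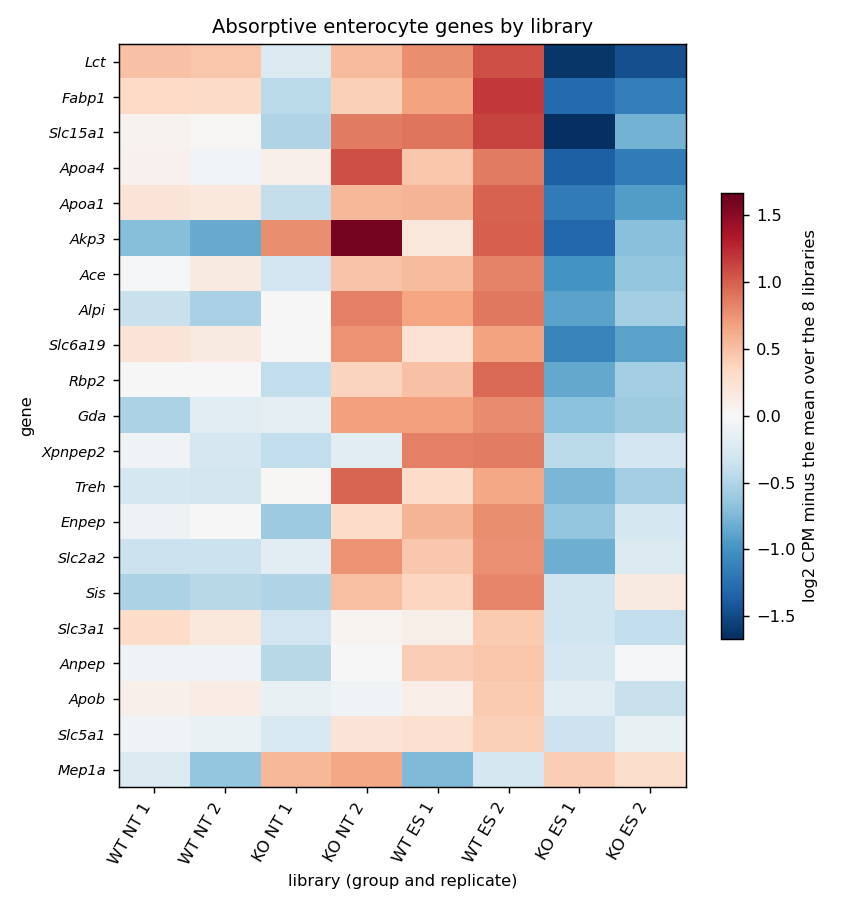
Log2 CPM of 21 absorptive enterocyte genes that the text names, in each library, minus the gene's mean over the 8 libraries, ordered by the fold change in ES. Most rows are low in both KO ES libraries and high in both WT ES libraries, and KO NT replicate 2 is higher than KO NT replicate 1 in most rows, as for Alpi with 114 against 64.4 CPM.

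HNF4 factors are known as activators of enterocyte genes, and their promoters were searched in the same way for the letters CAAAGTCCA, an HNF4 binding site. These occurred in 4 of 39 promoters of absorptive enterocyte genes (10.3%), in 13 of 738 promoters of all genes called lower (1.76%), in 1 of 516 promoters of genes called higher (0.194%) and in 156 of 32851 promoters in the entire set (0.475%). The sets overlap, because 30 of the 38 tested enterocyte genes are among those called lower. The 39 promoters belong to 34 of the 38 enterocyte genes. The shares describe the promoters only, and whether HNF4 factors had a part in the genotype difference was not tested. Stretches from 3 of these enterocyte promoters are given to show the match, in capitals, which may stand on either strand. They lie at chr1:87101607-87101665 on the reverse strand for Alpi, at chr9:44673122-44673210 on the forward strand for Treh, the brush border trehalase, and at chr17:85028268-85028346 on the forward strand for Slc3a1, a subunit of the cystine transporter.
Alpi: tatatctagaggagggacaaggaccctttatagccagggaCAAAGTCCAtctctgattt
Treh: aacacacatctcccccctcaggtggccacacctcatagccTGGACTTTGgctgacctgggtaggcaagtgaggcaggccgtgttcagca
Slc3a1: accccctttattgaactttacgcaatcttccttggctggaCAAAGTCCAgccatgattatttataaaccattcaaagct
The matches start 19, 71 and 39 bases before the gene starts. Treh fell from 9.82 and 12.4 to 4.70 and 5.31 CPM (-1.14 ± 0.29) and Slc3a1 from 36.8 and 46.6 to 27.5 and 26.0 CPM (-0.64 ± 0.13). Hnf4a itself did not pass, at 1060 and 1032 CPM in WT ES and 1153 and 1210 CPM in KO ES (0.18 ± 0.05, adjusted p = 0.0780), whereas its paralog Hnf4g fell from 129 and 141 to 92.1 and 93.9 CPM (-0.54 ± 0.09, adjusted p = 0.00460). Maf, a transcription factor of enterocyte maturation, fell from 45.6 and 44.7 to 15.2 and 22.3 CPM (-1.27 ± 0.20). The call of Treh was lost without any single ES library or either WT NT library (adjusted p of up to 0.213). The call of Slc3a1 was lost without WT ES replicate 2 or either KO ES library (adjusted p of up to 0.145).

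Other genes of the absorptive surface and of detoxification fell in part. Of 23 microvillus genes, 7 fell, none rose and 16 did not pass. The actin nucleator Cobl stood at 69.8 and 72.7 CPM in WT ES and 41.6 and 44.0 CPM in KO ES (-0.73 ± 0.07), and Cdhr5, a cadherin that links microvilli, at 173 and 162 and 109 and 109.9 CPM (-0.62 ± 0.07). Vil1, the villin of the microvillus core, did not pass (-0.20 ± 0.07), and the list's count dropped to 4 without KO ES replicate 2 or either WT ES library. Of 49 genes of xenobiotic, bile acid and retinoid metabolism, 13 fell, none rose and 36 did not pass, with a median of -0.49 in ES and 0.07 in NT, and none passed the test of the difference between them. Nr1h4, the bile acid receptor FXR, fell from 29.4 and 31.4 to 18.4 and 17.9 CPM (-0.74 ± 0.09, adjusted p = 0.000857), and its NT levels were 15.4 and 15.3 CPM in WT and 15.4 and 16.1 CPM in KO. The retinol dehydrogenase Rdh7 fell by 1.03 ± 0.15 and the carboxylesterase Ces2a by 0.95 ± 0.14. The number of lower genes on that list was 5 without KO ES replicate 2 or WT ES replicate 2, 27 without KO NT replicate 1 and 28 without KO NT replicate 2. It was also 19 with a filter at 1 CPM, 22 by DESeq2 and 26 with only the ES groups fitted.

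Some genes of ion transport and iron handling were also lower. Of 29 ion and fluid transport genes 7 fell, none rose and 22 did not pass. Slc9a3, the sodium-proton exchanger of the brush border, fell from 33.6 and 34.7 to 16 and 15.4 CPM (-1.12 ± 0.12), and the anion exchanger Slc26a6 from 49.2 and 52.7 to 21.9 and 25.6 CPM (-1.10 ± 0.15). Slc12a2, the basolateral cotransporter that feeds chloride secretion, did not pass, at 2065 and 2064 CPM in WT ES and 1987 and 2020 CPM in KO ES. Of 15 iron genes, the exporter Slc40a1 fell from 21 and 25.6 to 9.36 and 10.3 CPM (-1.24 ± 0.19), the ferritin chain Fth1 from 907 and 869 to 692 and 694 CPM (-0.36 ± 0.06), and Heph, the oxidase that works with the exporter, by 0.30 ± 0.08. The call of Heph was lost without any single ES library or either WT NT library (adjusted p of up to 0.259). Without KO ES replicate 2, 3 ion transport genes were called.

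Goblet cell genes were lower in KO under both conditions. Of 29 tested genes, 23 fell in ES, none rose and 6 did not pass, with a median of -0.69, and in NT 21 fell with a median of -0.68. Clca1, a metalloprotease of mucus (chromosome 3, 145003817 to 145032776), stood at 932 and 886 CPM in WT ES and 202 and 207 CPM in KO ES, 4.45-fold lower (-2.15 ± 0.09, adjusted p = 1.65e-06). Muc2, the gel-forming mucin, stood at 1018 and 973 CPM in WT ES and 482 and 479 CPM in KO ES (-1.05 ± 0.06, adjusted p = 4.27e-06). In both genes the KO ES level lay near or below the WT NT level, which was 301 and 300.3 CPM for Clca1 and 481 and 472 CPM for Muc2. The mucus proteins Fcgbp (-1.20 ± 0.06), Tff3 (-1.07 ± 0.06) and Zg16 (-1.76 ± 0.13) and the folding enzyme Agr2 (-0.92 ± 0.06) fell likewise.

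Among goblet regulators, Spdef, the transcription factor that drives goblet maturation, fell from 33.9 and 31.3 to 19.1 and 16.4 CPM (-0.88 ± 0.10), and Creb3l1, a membrane-bound factor of secretory cells, from 44.3 and 43.6 to 32.7 and 31.7 CPM (-0.45 ± 0.08). Atoh1, the factor that commits progenitors to the secretory fate, stood at 26.5 and 24.1 CPM in WT ES and 18.6 and 21.8 CPM in KO ES and did not pass (-0.32 ± 0.11, adjusted p = 0.102), whereas in NT it was lower in KO (-0.77 ± 0.11, adjusted p = 0.00398). The difference between those 2 effects was 0.45 ± 0.16 (adjusted p = 0.318). Retnlb, a goblet protein with antimicrobial activity, was low in NT, at 0.408 and 0.235 CPM in WT and 0.323 and 0.243 CPM in KO. In ES it stood at 4.19 and 3.18 CPM in WT and 0.476 and 0.567 CPM in KO (-2.82 ± 0.33, adjusted p = 0.000843). Leaving out any 1 library left 16 to 24 goblet genes called lower. The call of Creb3l1 was lost without KO ES replicate 2 or either WT ES library (adjusted p of up to 0.0922).

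Tuft cell genes were also lower in both conditions where they passed, with 14 of 26 tested genes lower in ES, none higher and 12 not passing (median -0.84), and 16 lower in NT (median -1.16). The summed level of the list overlapped between the genotypes, with 606 and 577 CPM in WT ES and 555 and 618 CPM in KO ES. Most of that sum was Cd24a, a surface protein also found on other crypt cells, which stood at 409 and 376 CPM in WT ES and 438 and 503 CPM in KO ES and did not pass (0.26 ± 0.08, adjusted p = 0.0656). Dclk1, the kinase that marks tuft cells, stood at 22.6 and 21.6 CPM in WT ES and 8.98 and 12.1 CPM in KO ES (-1.06 ± 0.14, adjusted p = 0.00125). The actin-binding protein Avil fell from 16.4 and 15.6 to 9.14 and 6.67 CPM (-1.02 ± 0.15) and Plcb2, the phospholipase of taste signalling, from 8.58 and 7.89 to 3.75 and 3.66 CPM (-1.16 ± 0.17). Pou2f3, the factor that specifies tuft cells, did not pass in ES, with 6.92 and 5.28 CPM in WT and 5.78 and 4.14 CPM in KO (-0.32 ± 0.26), and was lower in KO NT (-1.20 ± 0.26, adjusted p = 0.0269). None of the 26 tuft genes, Pou2f3 included, passed the test of the difference between ES and NT. Trpm5, the cation channel of these cells, missed the threshold (-0.83 ± 0.23, adjusted p = 0.0503). Ptprc, a pan-leukocyte gene that some tuft cells also express, was at 7.77 and 9.65 CPM in WT ES and 6.35 and 11.3 CPM in KO ES. The number lower was 8 without WT ES replicate 1, 7 without WT ES replicate 2 and 5 without KO ES replicate 2, and 9 without the count filter.

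Hormone and granule genes of enteroendocrine cells fell in 13 of 21 tested cases, none rose and 8 did not pass, with a median of -0.80. Gip, the glucose-dependent insulinotropic peptide, stood at 39.1 and 49.6 CPM in WT ES and 13.8 and 16 CPM in KO ES (-1.57 ± 0.15, adjusted p = 0.000204). Sst, somatostatin, stood at 11.0 and 9.69 CPM and 4.25 and 2.81 CPM (-1.56 ± 0.21). The WT NT libraries stood at 19.1 and 20.1 CPM for Gip and 5.65 and 4.23 CPM for Sst, and neither KO ES library exceeded the higher of them. The granule proteins Chgb and Chga fell by 0.58 ± 0.09 and 0.69 ± 0.12, and Ddc, the decarboxylase of serotonin synthesis, by 0.39 ± 0.07. Further hormones called lower were Gcg (-1.04 ± 0.19), Ghrl (-1.22 ± 0.23), Cck (-0.80 ± 0.17), Nts (-1.89 ± 0.44) and Sct (-1.0 ± 0.25). In NT 2 of the 21 were lower, with a median of -0.60, and none differed between the conditions past the threshold. Of 22 fate factors, Isl1 (-1.32 ± 0.28), St18 (-1.03 ± 0.26) and Pax6 (-1.37 ± 0.36) fell and Sox4 rose (0.28 ± 0.05), while Neurod1 did not pass (-0.57 ± 0.23). The call of Chgb was lost without KO ES replicate 2 (adjusted p = 0.0519). The call of Chga was lost without WT ES replicate 1 or KO ES replicate 2 (adjusted p of up to 0.0839). The calls of Ddc and Ghrl were lost without WT ES replicate 2 or KO ES replicate 2 (adjusted p of up to 0.0764). The calls of Gcg and Cck were lost without WT ES replicate 1 or either KO ES library (adjusted p of up to 0.136). The calls of Nts, St18 and Pax6 were lost without any single ES library or either WT NT library (adjusted p of up to 0.223). The call of Sct was lost without KO ES replicate 2, either WT ES library or either WT NT library (adjusted p of up to 0.217). The calls of Isl1 and Sox4 were lost without KO ES replicate 2 or either WT ES library (adjusted p of up to 0.155). The number of lower hormone genes was 2 when KO ES replicate 2 was left out and 8 when its partner was, 5 when WT ES replicate 1 was left out and 7 when its partner was, and 8 with no count filter.

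Most Paneth cell genes did not pass the test, and among all tested genes 4.47% were lower and 3.09% higher in KO ES. Of 29 tested genes 3 fell, none rose by edgeR or DESeq2 and 26 did not pass, with a median of 0.06. The number called higher was 4 without KO NT replicate 1, 3 without its partner, 1 without KO ES replicate 2 and 3 with only the ES groups fitted. Lyz1, the lysozyme of Paneth granules, stood at 3783 and 3638 CPM in WT ES and 4065 and 4369 CPM in KO ES (0.18 ± 0.10, adjusted p = 0.322). Mptx2, a secreted pentraxin, fell from 412 and 422 to 333 and 301 CPM (-0.40 ± 0.06), Mptx1 by 1.34 ± 0.23 and the protease Mmp7 by 0.33 ± 0.07. The alpha-defensin genes Defa21 and Defa22, which are near-identical copies whose reads the counting could split, stood higher in KO ES than in WT ES and did not pass (0.54 ± 0.16 and 0.52 ± 0.16). The call of Mptx1 was lost without WT ES replicate 1 or KO ES replicate 2 (adjusted p of up to 0.0574). The call of Mmp7 was lost without WT ES replicate 1, either KO ES library or either WT NT library (adjusted p of up to 0.147). The number of lower genes was 1 without WT ES replicate 1 or KO ES replicate 2, 2 without either WT NT library or KO ES replicate 1, and 5 without either KO NT library.

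Antimicrobial and inflammatory genes of the epithelium fell in 9 of 28 tested cases, rose in 3 and did not pass in 16. Reg1, a secreted lectin of regenerating epithelium, stood at 113 and 109.7 CPM in WT ES and 22.9 and 27.0 CPM in KO ES (-2.15 ± 0.16, adjusted p = 2.91e-05). Its NT level was 32.8 and 33.0 CPM in WT and 40.3 and 60.9 CPM in KO, so that the KO ES libraries were the lowest of the 8. Reg3a fell from 9.23 and 12.5 to 3.90 and 2.92 CPM (-1.67 ± 0.21), the gasdermin Gsdmc4 from 46.5 and 36.8 to 16.7 and 14.9 CPM (-1.40 ± 0.19) and the cytokine Il18 by 1.07 ± 0.18. Reg3g, a bactericidal lectin, stood at 336 and 361 CPM in WT ES and 258 and 191 CPM in KO ES and did not pass (-0.63 ± 0.20, adjusted p = 0.0848). Tnf (0.85 ± 0.16), Nos2 (0.71 ± 0.18) and the NF-kappaB inhibitor Nfkbia (0.43 ± 0.09) rose. Without WT ES replicate 2 or KO ES replicate 2, none of the 3 risen genes was called, and without KO ES replicate 2 the number lower was 6. The call of Il18 was lost without KO ES replicate 2 (adjusted p = 0.0502). The calls of Tnf and Nfkbia were lost without WT ES replicate 2 or KO ES replicate 2 (adjusted p of up to 0.11). The call of Nos2 was lost without any single ES library or either WT NT library (adjusted p of up to 0.250).

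More stem cell genes were higher than lower in KO ES. Of 31 tested genes 10 rose, 2 fell and 19 did not pass, with a median of 0.16 in ES and -0.15 in NT. The 10 include Jun, which is also counted among the immediate early genes. Olfm4, an abundant secreted glycoprotein of stem cells, stood at 8317 and 7975 CPM in WT ES and 11585 and 10878 CPM in KO ES (0.46 ± 0.07, adjusted p = 0.00412). Scn2b, a sodium channel subunit enriched in these cells, stood at 49.97 and 53.4 CPM and 93.4 and 91.8 CPM (0.84 ± 0.08), with 88.9 and 84.8 CPM in WT NT and 99.4 and 84.9 CPM in KO NT, so that the WT ES libraries were the lowest of the 8. The RNA-binding protein Msi1 rose from 47.4 and 45.5 to 65.7 and 62.6 CPM (0.47 ± 0.07). Ascl2, a transcription factor of stem cell identity, rose from 22.1 and 21.9 to 30.3 and 30.4 CPM (0.47 ± 0.11, adjusted p = 0.0243), and Axin2, a Wnt feedback gene, from 280.4 and 274 to 355 and 346 CPM (0.34 ± 0.06). Lgr5, Smoc2 (0.15 ± 0.06), Ephb2 (0.14 ± 0.08) and Sox9 (0.05 ± 0.09) did not pass, and Aqp4 (-0.48 ± 0.09) and Etv5 (-0.61 ± 0.14) fell. Of 17 Wnt targets 2 rose, 15 did not pass and none fell, and the number risen was 0 without WT ES replicate 2 and 1 without KO ES replicate 2 or WT ES replicate 1. The call of Ascl2 was lost without any single ES library or either WT NT library (adjusted p of up to 0.138). The call of Axin2 was lost without WT ES replicate 2 (adjusted p = 0.0804). The call of Aqp4 was lost without WT ES replicate 2 or KO ES replicate 2 (adjusted p of up to 0.125). The call of Etv5 was lost without any single ES library (adjusted p of up to 0.135). The number of risen stem cell genes was 4 when WT ES replicate 2 was left out, 5 for either KO ES library, and 6 for WT ES replicate 1, for either WT NT library or with no count filter.

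The division and growth genes that passed were all higher, and most of each list did not pass. Among all tested genes 3.09% were called higher in ES and 2.36% in NT. Of 33 S phase genes 7 rose and none fell, with a median of 0.22, and of 30 genes of G2 and mitosis 3 rose and none fell, with a median of 0.17, and 22 were higher in NT with a median of 0.40, but none of the 30 passed the test of the difference between ES and NT. Mki67, a protein of dividing cells, stood at 570.3 and 731 CPM in WT ES and 787 and 790.3 CPM in KO ES and did not pass (0.28 ± 0.10). Among S phase genes the ligase Lig1 rose by 0.36 ± 0.07 and the cyclin Ccne1 by 0.61 ± 0.15. Of 35 ribosome biogenesis and Myc target genes 8 rose, 27 did not pass and none fell, with nucleolin, Ncl, from 1333 and 1340 to 1653 and 1941 CPM (0.43 ± 0.09). The 80 cytosolic ribosomal protein genes had a median of -0.07, and edgeR and limma-voom called none of them, DESeq2 called 1, and 2 had an unadjusted p under 0.05. Without KO ES replicate 2 no gene of the S phase, mitosis or ribosome biogenesis lists was called, and without WT ES replicate 2 none of the S phase and ribosome biogenesis lists was. Without WT ES replicate 1, either WT NT library or the count filter at most 1 gene of the S phase and ribosome biogenesis lists was called, and no gene of the mitosis list. Without KO NT replicate 1, 12 S phase and 13 ribosome biogenesis genes were called. The calls of Lig1 and Ncl were lost without KO ES replicate 2 or either WT ES library (adjusted p of up to 0.109). The call of Ccne1 was lost without WT ES replicate 2, KO ES replicate 2 or either WT NT library (adjusted p of up to 0.243).

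Genes of amino acid and one-carbon metabolism passed in both directions, against 3.09% higher and 4.47% lower among all tested genes in ES. Of 46 amino acid and one-carbon genes 8 rose, 4 fell and 34 did not pass. Mthfd1l, a mitochondrial enzyme of folate metabolism, rose from 18.5 and 20.3 to 30.9 and 36.4 CPM (0.80 ± 0.12, adjusted p = 0.00257), and its partners Mthfd2 and Shmt2 rose by 0.48 ± 0.10 and 0.30 ± 0.07. Phgdh, the first enzyme of serine synthesis, rose by 0.40 ± 0.10 and Asns, the asparagine synthetase, by 0.42 ± 0.07. Arginase 2, Arg2, fell from 146 and 164 to 66.9 and 83.6 CPM (-1.04 ± 0.18) and glutamine synthetase, Glul, from 121 and 125 to 95.2 and 76.8 CPM (-0.52 ± 0.10). The number of higher genes was 4 without KO ES replicate 1, 3 without either WT NT library, 1 without any other single ES library and 2 without the count filter. The calls of Mthfd2, Asns and Glul were lost without KO ES replicate 2 or either WT ES library (adjusted p of up to 0.137). The calls of Shmt2 and Phgdh were lost without any single ES library or either WT NT library (adjusted p of up to 0.185). The call of Arg2 was lost without WT ES replicate 2 or KO ES replicate 1 (adjusted p of up to 0.0569).

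Among genes of energy metabolism the share called differed by list, against 7.56% of all tested genes called in ES, with 4.47% lower. It lay above those shares for glycolysis, the tricarboxylic acid cycle and gluconeogenesis. For the nuclear respiratory chain and mitochondrially encoded genes it lay below them. The calls in the lists that follow were all lower, whereas of 9 pentose phosphate genes 1, G6pdx, was higher and none lower. In NT 3 glycolysis genes were higher in KO and none was lower. Of 27 glycolysis genes 3 fell, among them the regulators Pfkfb2 (-0.46 ± 0.08) and Pfkfb4 (-0.58 ± 0.10), while Ldha did not pass (-0.19 ± 0.05). Of 29 genes of the tricarboxylic acid cycle and pyruvate use 3 fell, with the pyruvate dehydrogenase kinase Pdk4, also a PPAR and glucocorticoid target, at 2.54 and 3.82 CPM in WT ES and 0.413 and 0.794 CPM in KO ES (-2.35 ± 0.47). Of 76 nuclear genes of the respiratory chain 2 fell, and of 13 mitochondrially encoded genes edgeR, DESeq2 and limma-voom called none (median 0.10), with 2 at an unadjusted p under 0.05. Of 16 gluconeogenesis and glycogen genes 4 fell, with Pck1, the carboxykinase, from 7.31 and 11.0 to 4.25 and 4.45 CPM (-1.06 ± 0.26), whereas Pck1 was higher in KO NT (1.22 ± 0.26, adjusted p = 0.0265). None of the 16, Pck1 included, passed the test of the difference between ES and NT. Without KO ES replicate 2 none of the glycolysis, gluconeogenesis, tricarboxylic acid and nuclear respiratory chain genes was called lower, and the glycolysis count was 6 without KO NT replicate 1 and 7 without its partner. The call of Pfkfb2 was lost without KO ES replicate 2 (adjusted p = 0.0545). The call of Pfkfb4 was lost without WT ES replicate 2 or KO ES replicate 2 (adjusted p of up to 0.0611). The call of Pdk4 was lost without WT ES replicate 2 or either KO ES library (adjusted p of up to 0.105). The call of Pck1 was lost without WT ES replicate 2, either KO ES library or either WT NT library (adjusted p of up to 0.230).

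The genotype effects in ES and in NT come from separate libraries and could be set side by side. Of the 1312 genes called in ES, 361 (27.5%) were called in the same direction in NT, which is 46.5% of the 776 genes called there, and 7 were called in opposite directions. The sign was the same in NT for 84.9% of the genes called in ES and for 62.9% of all tested genes. Goblet, tuft and cholesterol genes lay along the line of equal effects, whereas most enterocyte genes lay below it. The difference between the 2 genotype effects passed for 19 genes (0.109% of those tested), 17 (0.0979%) with a lower and 2 (0.0115%) with a higher value in ES. Of the 38 absorptive enterocyte genes 5 passed this test, all lower (Alpi, Akp3, Lct, Apoa4 and Gda), and the list's median difference was -1.36. Alpi stood at 49.4 and 44.2 CPM in WT NT and 64.4 and 114 CPM in KO NT, against 101 and 118 and 34.4 and 43.1 CPM in WT ES and KO ES, a difference of -2.42 ± 0.31 (adjusted p = 0.0222). KO NT replicate 2, which held the higher Alpi level of its group, also had the highest mitochondrial share of the 8 libraries, 8.74%, and 53 genes passed without it. The number was 363 without KO NT replicate 1, 10 without WT ES replicate 2, 2 without WT NT replicate 2 or either KO ES library, and 0 without WT NT replicate 1.

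**Figure D4:**
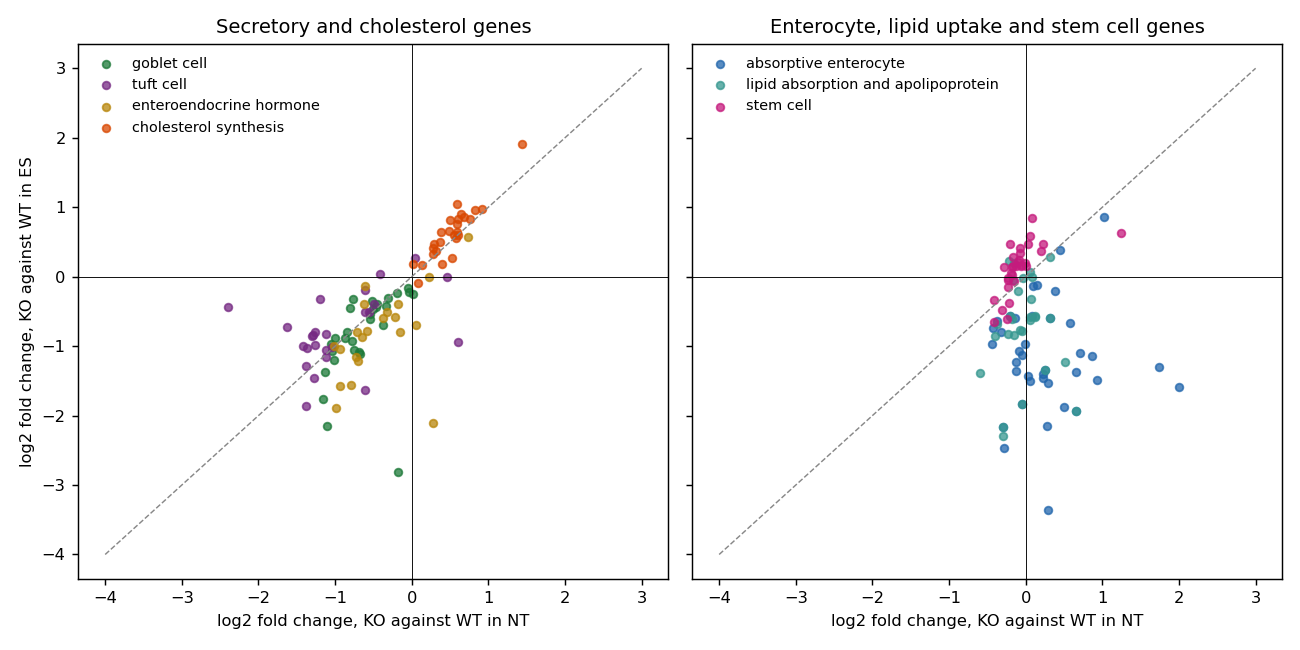
Log2 fold change of KO against WT in ES (vertical) against that in NT (horizontal) for single genes of 7 lists, with equal effects on the dashed line. Chat, a tuft list member at 0 in both KO NT libraries, lies outside the range drawn. Cholesterol genes sit near the line at upper right, goblet and tuft genes near it at lower left, and enterocyte genes spread downward, as Lct with -2.47 in ES and -0.29 in NT.

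Several of the largest single changes were measured in both conditions. Of the 24 genes with the largest rises and falls, Grm4, a glutamate receptor (chromosome 17, 27422387 to 27521403), stood at 17.3 and 15.2 CPM in WT ES and 0.698 and 0.199 CPM in KO ES, 37.2-fold lower (-5.22 ± 0.28), and at 19.9 and 19.7 against 0.431 and 0.728 CPM in NT. Fgf1, a fibroblast growth factor, stood at 138 and 179.7 CPM and 6.19 and 7.15 CPM in ES (-4.57 ± 0.14) and at 168 and 166 and 4.69 and 5.31 CPM in NT. Both genes were low in all 4 KO libraries. H2-Bl, a class I histocompatibility gene, fell from 32.2 and 30.7 to 3.62 and 3.01 CPM (-3.25 ± 0.15), and Tagap1, a GTPase-activating protein, rose from 9.20 and 11.3 to 34.4 and 33.3 CPM (1.73 ± 0.11). Zbtb16, a transcription factor and glucocorticoid target, stood at 0.785 and 1.41 CPM in WT NT, 6.05 and 6.14 CPM in WT ES, 0.862 and 0.152 CPM in KO NT and 0.508 and 0.794 CPM in KO ES (-3.20 ± 0.39). Pxdn, a peroxidase of the basement membrane, rose from 11.2 and 22.7 to 62.9 and 53.8 CPM (1.80 ± 0.24).

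Chromosome 17, which holds Grm4, H2-Bl, Tagap1 and the histocompatibility complex, carried more calls than the other chromosomes. In ES 120 of its 913 tested genes were called (13.1%), against 5.77% to 9.84% on the others, and 7.01% were called in both ES and NT, against 0.949% to 3.33%. Without chromosome 17, 1207 genes were called in ES. Spdef, Tff3, Abcg5, Abcg8, Slc3a1, Mep1a and Tnf, described above, and Fkbp5, described below, also lie on it. Without it 21 goblet, 15 lipid absorption and 29 enterocyte genes were called lower and 20 cholesterol genes higher. Of 25 class I antigen presentation genes, 18 of them on chromosome 17, 11 rose, 1 fell and 13 did not pass, and without that chromosome 1 risen gene, Nlrc5, was left. H2-Q6 stood at 17.6 and 13.9 CPM in WT ES and 32.8 and 38.3 CPM in KO ES (1.17 ± 0.13), and the class II chain H2-Aa at 107 and 97.5 and 163 and 175 CPM (0.72 ± 0.08). Genes of this family are near-identical in parts, so that reads may be shared among them. Of 12 class II genes the 4 that rose all lie on chromosome 17. The class II regulator Ciita, on chromosome 16, did not pass (0.53 ± 0.19). Why one chromosome stood apart was not tested, and the strain background of the groups is not given. Leaving out WT ES replicate 2 or KO ES replicate 2 lowered the class I count to 3 and 4 and the class II count to 2, leaving out WT ES replicate 1 lowered the class I count to 7, and leaving out KO NT replicate 1 or 2 raised the class II count to 8 and 7.

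**Figure D5:**
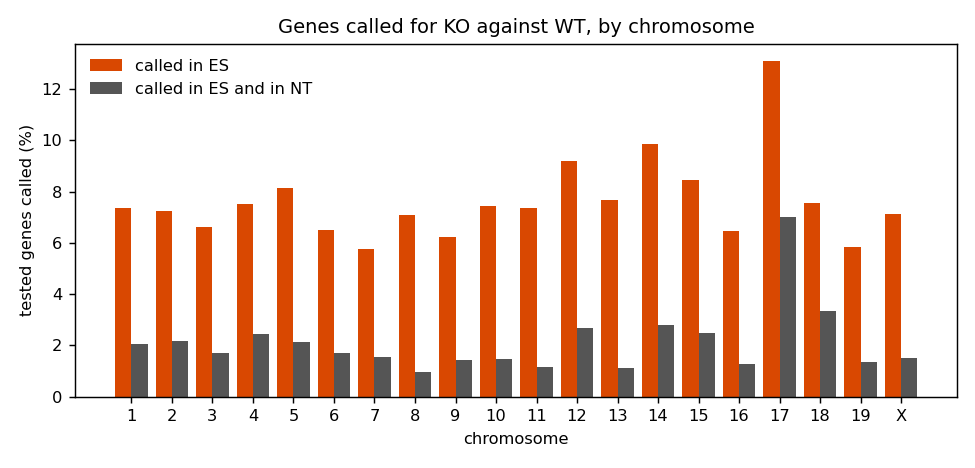
Share of tested genes called for KO against WT in ES (first bar), and in both ES and NT (second bar), on each chromosome. Chromosome 17 stands at 13.1% and 7.01%, above every other chromosome in both shares.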

How the data were processed

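Intestinal stem cells sorted for EGFP were sequenced as strand-specific TruSeq libraries of polyadenylated RNA, per the labels' protocols. The authors deposited raw read counts for 55335 genes, and the submitters' processing notes name mm10 and FastQC 0.11.2. No source used here names the aligner, the counter or its strand setting. The column label Ctrl was read as NT. Of the table's identifiers 55154 matched GENCODE M21, from which coordinates were taken.

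Genes were filtered with filterByExpr (17364 kept), scaled by TMM and fitted over 8 libraries, 2 in each of 4 groups, with edgeR 4.0.16 (glmQLFit, newer form, glmQLFTest) in R 4.3.3. Adjusted p-values are Benjamini-Hochberg over all tested genes, with a threshold of 0.05, and levels are CPM after TMM. The error is the fold change divided by the root of F. The script was tested on simulated data. Python 3.11.15, pandas 2.3.3 and matplotlib 3.10.9 made tables and figures.

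Genes were named by rule: the 12 largest rises and 12 largest falls among called genes with a mean of at least 1 CPM, non-overlapping ES libraries and no predicted-gene name, up to 5 called members by p of each list with at least 2, and a set of markers. A further 64 were named for their role after their values were seen. Some genes that the rule selects are not reported here. The comparison and the gene lists were chosen with earlier results of these data known. Lists share some members, so that their counts are not separate evidence. Dgat2 and Mogat2 are counted with both triglyceride synthesis and lipid absorption, and Rbp2 with both enterocyte and retinoid genes. Alternatives were RLE scaling, other count filters, DESeq2 1.42.0, limma-voom (limma 3.58.1), a fit of the compared groups alone, a replicate block, other thresholds and omission of each library. The older form of the test and omission of chromosome 17 were added after seeing the data. Promoters came from RefSeq (GRCm38.p6), and 9 motifs were searched on both strands, of which the sterol element and the HNF4 site are reported.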

Additional observations from a re-analysis of the deposited data

Results flagged for a closer look

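For 10 of the genes named by the fixed rule, the genotype difference itself differed between ES and NT in edgeR's test of that difference (values below are the log2 difference in ES minus that in NT ± SE, with Benjamini-Hochberg adjusted p). Genes with a lower value in ES were the lectin Reg1 (-2.77 ± 0.22, adjusted p = 0.00197), the iron exporter Slc40a1 (-2.50 ± 0.28, adjusted p = 0.0115), the mucus protease Clca1 (-1.05 ± 0.13, adjusted p = 0.0222) and the phosphatase Alpi (-2.42 ± 0.31, adjusted p = 0.0222). The same held for the lactase Lct (-2.18 ± 0.30, adjusted p = 0.0352), Apoa4 (-2.58 ± 0.36, adjusted p = 0.0405), the guanine deaminase Gda (-2.03 ± 0.31, adjusted p = 0.0475) and the exchanger Slc9a3 (-1.13 ± 0.17, adjusted p = 0.0475). Sox4 (0.50 ± 0.07, adjusted p = 0.0475) and Scn2b (0.76 ± 0.12, adjusted p = 0.0475) had a higher value in ES. For Slc40a1 and Alpi the sign was opposite in NT (1.26 ± 0.20 and 0.93 ± 0.21), whereas Clca1 was lower in KO in both conditions (-1.10 ± 0.09 in NT). No gene passed this test without WT NT replicate 1.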

How the results depend on the processing

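The 1312 genes called for KO against WT in ES became 593 without the count filter, 445 at an adjusted p under 0.01, 2178 at 0.1, and 375 to 1936 when 1 library was left out. The 776 genes called in NT became 317, 266 and 1262 under those settings, and 145 to 848 with 1 library left out. The 19 genes whose genotype difference differed between conditions became 0 without the count filter, 211 with DESeq2, 8 with limma-voom, 11 with the older form of the test, 2 at an adjusted p under 0.01, 49 at 0.1, and 0 to 363 with 1 library left out. The ES count stayed within 1.5 times with RLE scaling (1338), a 1 CPM filter (1470), DESeq2 (1577), limma-voom (1239), the ES groups alone (1448), the older form (1286) and without chromosome 17 (1207). With the replicate number as a block the counts were 1758 in ES, 998 in NT and 104 for the difference. Same-numbered libraries deviated together only weakly (correlations between groups of -0.0067 to 0.165, and 0.0384 between WT ES and KO ES), so the numbers were not taken as a pairing. No named gene's call reversed under any of these settings. With 2 libraries per group there were 4 residual degrees of freedom, and 3984 genes had an unadjusted p under 0.05 in ES.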

Other observations

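Some early response and clock genes passed the test in ES. Of 29 tested immediate early genes 5 were higher and 1 lower in KO ES and 23 did not pass, with a median of 0.295. More of them passed in NT, where 21 of the 29 were higher in KO and none lower, with a median of 1.15. Of all tested genes 2.36% were higher in KO NT. The genotype difference differed between ES and NT for 2 of the 29, with the effect lower in ES for both. The 5 higher in ES became 3 without WT NT replicate 2, 2 without WT ES replicate 2, 1 if WT ES replicate 1 was left out, 0 if KO ES replicate 2 was left out and 12 without either KO NT library. Atf3, a stress-induced transcription factor, stood at 27.2 and 37.3 CPM in WT ES and 75.04 and 87.4 CPM in KO ES (1.34 ± 0.23). Of 21 clock genes 6 were higher, 2 lower and 13 did not pass in ES, with a median of 0.248. In NT 6 were higher in KO and none lower, with a median of 0.535. The 6 higher in ES became 1 without KO ES replicate 2, 2 without either WT ES library and 3 without KO ES replicate 1. The 2 lower ones became 1 without either WT NT library or WT ES replicate 2, and 0 if KO ES replicate 2 or WT ES replicate 1 was left out. Per2 stood at 12.7 and 13.5 CPM in WT ES and 24.9 and 31.6 CPM in KO ES (1.11 ± 0.16). Per1 was lower in KO ES (-0.36 ± 0.10, adjusted p = 0.0442) and higher in KO NT (0.88 ± 0.10, adjusted p = 0.000745), and the difference between the effects was -1.24 ± 0.14 (adjusted p = 0.0115). No source gives the hour of collection. Fkbp5, a glucocorticoid target, fell from 77.3 and 91.0 to 47.3 and 51.9 CPM (-0.76 ± 0.09) and was lower in KO NT too (-0.76 ± 0.09). The call of Atf3 was lost without WT ES replicate 1 or KO ES replicate 2 (adjusted p of up to 0.0746). The call of Per1 was lost without any single ES library or either WT NT library (adjusted p of up to 0.234).

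A pair of identifiers in the table carries the symbol Raver1. One stood at 15.1 and 17.6 CPM in WT ES and 108 and 136 CPM in KO ES, and the other at 170 and 168 CPM in WT ES and 86.3 and 59.2 CPM in KO ES. In NT the first stood at 121 and 135 CPM in WT and 30.4 and 107 CPM in KO. The other stood at 78.1 and 58.2 CPM in WT NT and 170 and 89.7 CPM in KO NT. For both identifiers the direction by genotype in NT was thus the reverse of that in ES. Summed, Raver1 stood at 185 and 186 CPM in WT ES and 194 and 195 CPM in KO ES.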
